A study of Homo sapiens with 6 samples.

Results

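The neuroblastoma cell line SK-N-AS is a human tumour line. In it, 155 genes chosen by rule reached log2 5 on both iCSC sphere arrays and on no array of the other cultures. They make up 0.784% of the 19775 genes with a probe set of a single symbol. The series compared 3 cultures of this line on 2 expression arrays each, to look at the stem cell phenotype of each. iCSC cells received 5AdC (5-aza-2'-deoxycytidine) at 2.5 uM for 5 days while attached and then formed spheroids without serum. Sphere cells formed spheroids in serum-free medium with no pretreatment, and Monolayer cells grew attached with no drug. The labels give all 3 cultures as the same line, so the groups stand for 1 tumour's cells, and no drug-treated culture that stayed a monolayer was analysed here. The effect of 5AdC on its own therefore cannot be told apart from its effect together with the change of culture.

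The members were chosen by their signal on all 6 arrays. A gene was taken when its brightest probe set, by the mean over all 6 arrays, lay at log2 5 or more on both iCSC arrays and under 5 on all Sphere and Monolayer arrays. The same values that chose the members are described here, so their difference between cultures is not a finding and has no test. The pattern as such held for 167 genes. Of these, 12 were left out by name: SOX2, PROM1, MYCN, COL1A2, HOXC13, GAGE1, SSX1, SSX3, MAGEA1, MAGEA4, MAGEA10 and MAGEA12. By annotation the members hold 130 protein-coding genes, 21 long non-coding RNAs, 1 small nucleolar RNA and 3 transcribed pseudogenes.

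5AdC is a cytidine analogue that is built into DNA during replication and traps the enzymes that copy methylation onto the new strand. Methylation is then lost as cells divide, and genes held silent by a methylated promoter can be read again. Genes normally kept for the germ line and imprinted genes are textbook examples of transcription units silenced in this way. Methylation itself was not measured here.

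Levels are log2 GCRMA signals, as made by the authors. GCRMA pulls probe sets without signal into a narrow low band, so log2 5 is taken as background, and a fold against arrays under it is a lower bound computed against 5 and written "at least". Log2 differences of other genes from the linear model use the values as deposited, and where a culture lies under the limit they are fitted differences, not bounds. Signals of different probe sets cannot be ranked as amounts of transcript. The 6 arrays had medians from 2.78 to 2.83, and 34.3% to 35.2% of probe sets reached the limit. RNA degradation widens the gap between control probe sets at the 2 ends of ACTB, 3' minus 5', and this gap was 1.47 and 1.40 in iCSC, 1.22 and 1.21 in Sphere and 1.25 and 1.16 in Monolayer. For GAPDH the same gap was 0.169 and 0.204 in iCSC, 0.122 and 0.148 in Sphere and 0.154 and 0.165 in Monolayer. The part of RNA degradation in the pattern was not tested. Separate cultures behind the 2 arrays of a group are not stated in the labels, so p-values, given below for genes that are no members, measure only the spread between arrays, which may be technical. In bulk RNA such as this, more cells of a type and more RNA per cell cannot be told apart.

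Markers of the line were checked in the same files. On both iCSC arrays, 6 of 8 adrenergic neuroblast markers on the array reached the limit (PHOX2A, HAND2, GATA3, TH, ISL1 and CHGA), against 7 on each Sphere array and 4 on each Monolayer array. Of 9 markers of the mesenchymal neuroblastoma state, 7 and 6 reached it in iCSC, 6 and 6 in Sphere and 8 and 8 in Monolayer. Of 7 fibroblast markers, 4 and 5 did so in iCSC, 5 and 5 in Sphere and 4 and 4 in Monolayer. Of 8 epithelial markers, 1 did so on each iCSC array and 2 on every other array. Of 5 Schwann and glial markers, 1 did so on each iCSC and Monolayer array and none in Sphere. Of 6 germ cell markers, 2 did so on each iCSC array (NANOG and the member TEX14) and 1 on every other array. None of 8 leukocyte markers and none of 7 endothelial markers did so in iCSC, while 1 leukocyte marker did so on each Sphere and Monolayer array and 1 endothelial marker on each Monolayer array. That leukocyte marker was PTPRC, the antigen CD45, at 2.85 and 2.87 in iCSC, 12.42 and 12.52 in Sphere, and 11.64 and 11.84 in Monolayer. A level of this kind is unusual for a neuroblastoma line, and the identity of the cultures was taken from the labels and was not tested.

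The members differed in how far they stood from the limit. Their mean level in iCSC ran from 5.04 to 11.96 with a median of 6.53, whereas the median of the means was 2.82 in Sphere and 2.66 in Monolayer. The lower iCSC array lay at least 2 log2 units above the highest other array for 115 genes and less than 1 unit above it for 20. For 78 genes all 4 Sphere and Monolayer arrays were under 3, in the band of probe sets without signal. For 44 genes an array of Sphere or Monolayer reached 4 or more, and there the word "only" rests on where the limit was set. The lower iCSC array was at 7 or more for 52 members and under 6 for 71.

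**Figure D1:**
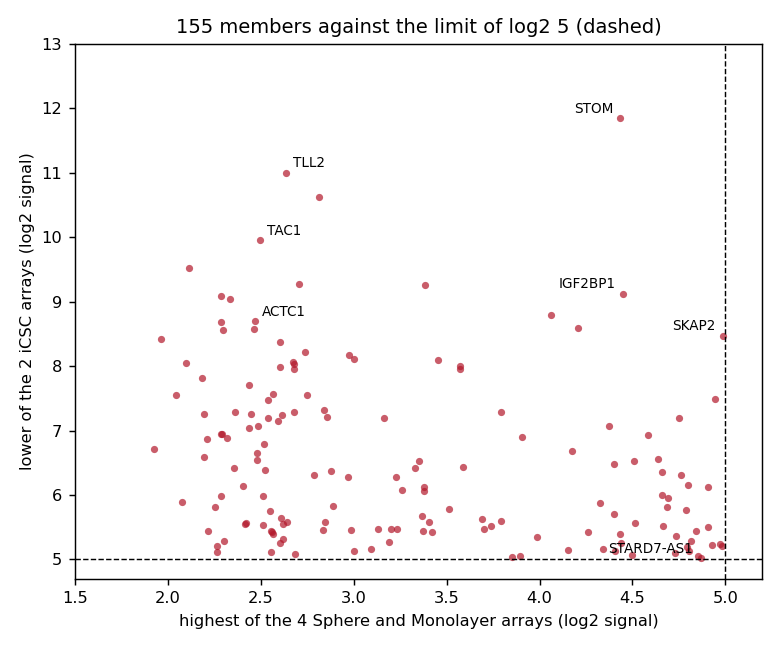
Each point is 1 of the 155 members, with the lower of its 2 iCSC arrays (vertical axis, log2 signal) against the highest of its 4 Sphere and Monolayer arrays (horizontal axis, log2 signal). Dashed lines mark the limit of log2 5. A column of 78 points lies left of 3, and STARD7-AS1 in the lower right corner shows how near to the limit some members are.

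At the edge, the members whose lower iCSC array was nearest above the limit were STARD7-AS1, ZNF213-AS1, KCNT2 and XNDC1N. STARD7-AS1 was at 5.07 and 5.02 in iCSC, 4.63 and 4.87 in Sphere, and 4.22 and 3.99 in Monolayer, a spread within which the cultures barely separate. KCNT2, a potassium channel subunit, passed with 6.27 and 5.05 in iCSC although its other arrays reached no more than 3.85. On the other side, SKAP2 and HAS2 came nearest, with 4.99 on 1 Monolayer array and 4.98 on 1 Sphere array. The genes nearest outside, counted on either side, were TUBA4A, APBB1IP, C1orf159 and AACSP1. APBB1IP missed on 1 array: it was at 6.38 and just under 5 in iCSC, 2.73 and 2.80 in Sphere and 2.75 and 2.79 in Monolayer. A further 117 genes reached the limit on 1 of the 2 iCSC arrays and on no other. As a measure of how many genes sort this way in any culture, 245 genes were at the limit in both Sphere arrays alone and 219 in both Monolayer arrays alone. No names were left out of these counts, and the matching number for iCSC is 167. Of the 9322 genes under the limit on all Sphere and Monolayer arrays, 1.79% reached it on both iCSC arrays.

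By the linear model, 150 of the 155 members were called higher in iCSC than in Sphere, and 150 higher than in Monolayer (limma, adjusted p under 0.05). Over all 10459 genes tested, 19.3% were called higher and 19.2% lower in iCSC than in Sphere, and 29.0% higher and 26.6% lower than in Monolayer. The rule used both contrasts, and nothing is read from the members' counts.

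Because 5AdC acts through CpG sites, the promoters of the members were looked at in RefSeq's sequences for GRCh38.p14, which cover 250 bases before to 50 after a gene's start. A promoter was listed for 113 of the 155 members, or 72.9%, too few to describe the whole set. Among protein-coding genes, with 1 chromosome left aside, it was listed for 99 of 121 members, or 81.8%, and the numbers below are for these. The measure is the number of CG pairs over the number expected from the promoter's own C and G content, taken on the first listed start. The 4 promoters shown are, among the 25 members with the highest iCSC mean, the 2 richest and the 2 poorest in CpG by this measure, with every CG in capitals. TAC1, the precursor gene of substance P, has 25 CG pairs and a ratio of 1.10 (chr7:97731836-97732135, plus strand). ZSCAN18, a zinc finger protein with a SCAN domain, has 36 and a ratio of 0.98 (chr19:58118355-58118654, minus strand). KLHL41, a kelch protein of the muscle sarcomere, has 1 and a ratio of 0.09 (chr2:169509452-169509751, plus strand). ISLR, a leucine-rich repeat surface protein of mesenchymal cells, has 3 and a ratio of 0.20 (chr15:74173460-74173759, plus strand).
TAC1: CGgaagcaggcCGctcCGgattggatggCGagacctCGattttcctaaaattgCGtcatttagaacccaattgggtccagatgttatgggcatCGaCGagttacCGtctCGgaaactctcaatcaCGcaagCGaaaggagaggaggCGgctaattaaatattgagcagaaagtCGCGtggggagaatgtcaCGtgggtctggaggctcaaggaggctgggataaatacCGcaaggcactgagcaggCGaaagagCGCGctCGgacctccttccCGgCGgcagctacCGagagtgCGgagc
ZSCAN18: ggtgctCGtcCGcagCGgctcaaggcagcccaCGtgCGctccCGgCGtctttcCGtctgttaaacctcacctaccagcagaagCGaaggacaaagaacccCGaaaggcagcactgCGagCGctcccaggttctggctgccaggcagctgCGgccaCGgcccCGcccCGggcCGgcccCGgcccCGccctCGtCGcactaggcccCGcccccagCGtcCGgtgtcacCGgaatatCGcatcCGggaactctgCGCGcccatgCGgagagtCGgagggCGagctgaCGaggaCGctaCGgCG
KLHL41: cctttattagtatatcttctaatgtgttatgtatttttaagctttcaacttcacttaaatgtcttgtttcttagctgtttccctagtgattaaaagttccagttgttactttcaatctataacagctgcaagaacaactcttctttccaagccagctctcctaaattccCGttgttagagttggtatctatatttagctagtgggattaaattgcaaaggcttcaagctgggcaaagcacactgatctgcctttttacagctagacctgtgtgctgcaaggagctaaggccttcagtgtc
ISLR: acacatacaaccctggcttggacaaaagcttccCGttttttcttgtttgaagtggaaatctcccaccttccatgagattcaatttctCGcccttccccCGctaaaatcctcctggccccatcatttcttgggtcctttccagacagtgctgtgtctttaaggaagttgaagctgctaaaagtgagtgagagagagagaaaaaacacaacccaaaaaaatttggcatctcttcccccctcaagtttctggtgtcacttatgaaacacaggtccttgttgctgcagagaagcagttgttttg

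The CpG content of the members' promoters was close to that of the array as a whole. Their median ratio was 0.77, against 0.79 over all 13456 protein-coding promoters of the array, and 65.7% had a ratio of at least 0.6, against 70.4%. Genes at the limit on all 6 arrays had a median of 0.86, with 88.9% at 0.6 or more. Promoters poor in CpG, with a ratio under 0.3, made up 14.1% of the members, 3.62% of the genes at the limit on all 6 arrays and 16.3% of all. The letters TATAAA, on either strand, were found in 12.1% of the members, 4.42% of the genes at the limit on all 6 arrays and 8.28% of all; they are in none of the 4 promoters above. The promoter with 36 CG pairs and the one with 1 both belong to members, so the rule fixed their shared pattern and nothing is read from it. For genes under the limit on all 6 arrays fewer than 80% had a listed promoter, and no comparison with them is given. The array as a whole includes the 7311 promoters of genes at the limit on all 6 arrays, so it does not stand for genes without signal.

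**Figure D2:**
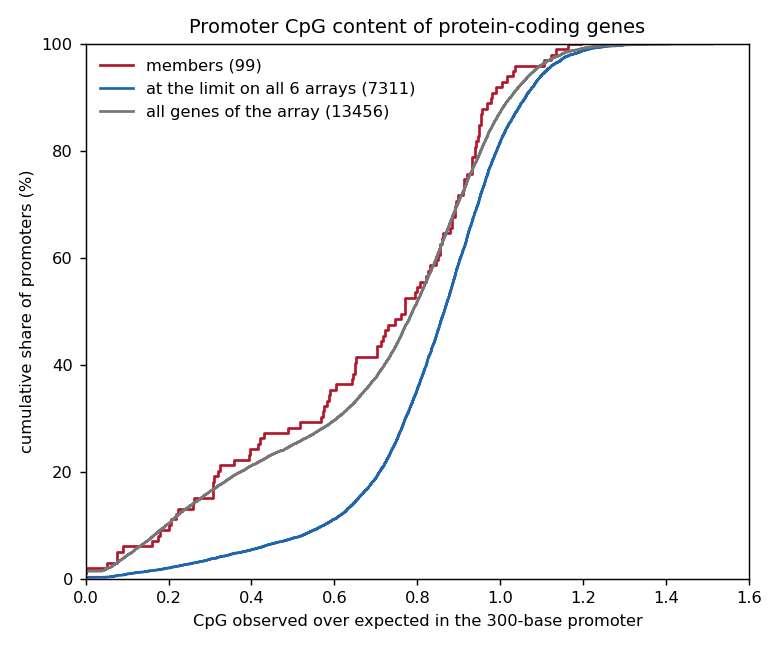
Cumulative share of promoters (vertical axis, percent) up to a given ratio of observed to expected CpG in the 300-base promoter (horizontal axis), for 99 members, 7311 genes at the limit on all 6 arrays and all 13456 protein-coding genes of the array with a listed promoter. The curve of the members runs close to that of all genes, with medians of 0.77 and 0.79, and left of the genes measured on every array.

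The 25 members with the highest mean iCSC signal hold membrane, matrix and muscle proteins, neuropeptide precursors, adaptors and regulators. STOM, the lipid-raft protein stomatin, was at 12.08 and 11.84 in iCSC, 4.36 and 4.17 in Sphere, and 4.39 and 4.44 in Monolayer, at least 125-fold above both other cultures. TLL2, a metalloprotease of the tolloid family, was at 11.47 and 11.01 in iCSC, 2.59 and 2.64 in Sphere, and 2.55 and 2.58 in Monolayer, at least 75.6-fold higher in iCSC. LHFPL6, a tetraspan membrane protein, was at 11.35 and 10.62 in iCSC, 2.78 and 2.80 in Sphere, and 2.79 and 2.81 in Monolayer. In each of these 3 genes the iCSC arrays lay far above the 4 others, and the 2 untreated cultures could hardly be told from each other. PRAC1, a small nuclear protein first known from prostate and rectum, was at 11.30 and 9.28 in iCSC, 2.63 and 2.69 in Sphere, and 2.67 and 2.70 in Monolayer, so that its 2 iCSC arrays were 2.02 log2 units apart. IGF2BP1, an oncofetal RNA-binding protein, was at 9.68 and 9.12 in iCSC, 4.45 and 4.33 in Sphere, and 2.62 and 2.77 in Monolayer. ISLR was at 9.47 and 9.25 in iCSC, 3.38 and 3.38 in Sphere, and 2.62 and 2.67 in Monolayer.

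**Figure D3:**
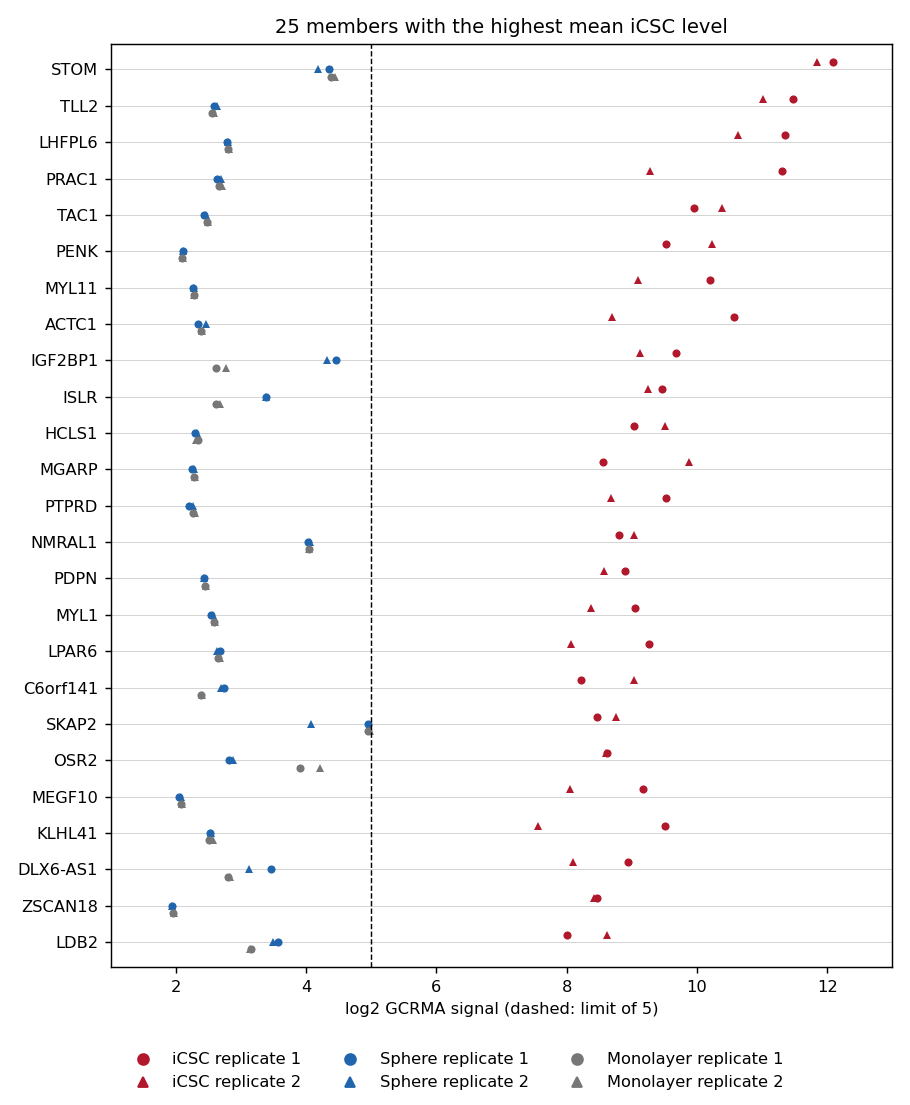
Log2 signal (horizontal axis) of the 25 members with the highest mean iCSC level on each of the 6 arrays, with circles for replicate 1 and triangles for replicate 2 of each culture and a dashed line at the limit of 5. All iCSC points lie at 7.56 or higher, while SKAP2 comes nearest to the limit in the other cultures, with 4.99 on 1 Monolayer array.

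The rest of these 25 covered many functions. HCLS1, the cortactin homologue of blood cells, was at 9.04 and 9.51 in iCSC, 2.29 and 2.33 in Sphere, and 2.33 and 2.32 in Monolayer. PDPN, the mucin-type glycoprotein podoplanin, was at 8.90 and 8.58 in iCSC, 2.43 and 2.43 in Sphere, and 2.44 and 2.46 in Monolayer. LPAR6, a receptor for lysophosphatidic acid, was at 9.26 and 8.06 in iCSC, 2.67 and 2.63 in Sphere, and 2.65 and 2.67 in Monolayer. None of the 4 other arrays was above 3 for these genes. SKAP2, an adaptor of Src family kinases, was at 8.47 and 8.75 in iCSC, 4.95 and 4.07 in Sphere, and 4.96 and 4.99 in Monolayer, so it lay just under the limit on 3 of the 4 other arrays. OSR2, a zinc finger factor of palate and limb development, was at 8.62 and 8.60 in iCSC, 2.81 and 2.88 in Sphere, and 3.91 and 4.21 in Monolayer. LDB2, a cofactor that binds LIM domains, was at 8.01 and 8.62 in iCSC, 3.57 and 3.48 in Sphere, and 3.15 and 3.14 in Monolayer.

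Muscle and neuronal genes gave 13 members each. The groups by function described from here on, muscle, neuronal, germline and zinc finger, were put together after the values were seen, so their sizes are descriptions. The muscle members were the contractile proteins MYL11, ACTC1, MYL1, TNNI1, MYH3 and TNNC2, the sarcomere and cytoskeleton proteins KLHL41, PDLIM3 and DES, the acetylcholine receptor subunit CHRNA1, the calcium pump inhibitor MRLN, the laminin receptor ITGA7 and the transcription factor MEF2C. MYL11, the fast skeletal regulatory light chain, was at 10.20 and 9.09 in iCSC, 2.27 and 2.28 in Sphere, and 2.27 and 2.28 in Monolayer, at least 25-fold above both other cultures. ACTC1, the cardiac alpha actin of heart and embryonic muscle, was at 10.57 and 8.70 in iCSC, 2.34 and 2.47 in Sphere, and 2.39 and 2.40 in Monolayer, at least 24.9-fold higher in iCSC. Both genes were in the lowest band on all 4 untreated arrays.

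The skeletal essential light chain MYL1 was at 9.05 and 8.37 in iCSC, 2.55 and 2.57 in Sphere, and 2.59 and 2.60 in Monolayer. KLHL41, whose promoter with 1 CG pair is printed above, was at 9.51 and 7.56 in iCSC, 2.52 and 2.53 in Sphere, and 2.50 and 2.57 in Monolayer. CHRNA1, the alpha subunit of the receptor at the neuromuscular junction, was at 8.42 and 7.98 in iCSC, 2.60 and 2.60 in Sphere, and 2.58 and 2.59 in Monolayer. These 3 genes were each higher on iCSC replicate 1 and in the lowest band on all untreated arrays. MYH3, the myosin heavy chain of embryonic muscle, was at 7.57 and 7.24 in iCSC, 2.60 and 2.60 in Sphere, and 2.58 and 2.62 in Monolayer. Slow troponin I (TNNI1) was at 8.03 and 6.87 in iCSC and at 2.21 or less elsewhere, and fast troponin C (TNNC2) at 7.04 and 6.42 in iCSC and at 2.35 or less elsewhere. Parts of both the thick and the thin filament were thus among the members, and these probe sets were in the lowest band in both untreated cultures. Near the lower end, the intermediate filament desmin (DES) was at 5.44 and 6.29 in iCSC, 3.25 and 3.37 in Sphere, and 1.96 and 1.87 in Monolayer, and MEF2C was at 5.64 and 5.11 in iCSC, 2.39 and 2.48 in Sphere, and 2.50 and 2.56 in Monolayer. MDFI and MDFIC, proteins known to bind and inhibit myogenic factors, were members too: MDFIC was at 8.28 and 7.96 in iCSC, 2.61 and 2.63 in Sphere, and 2.64 and 2.68 in Monolayer, and MDFI at 6.21 and 5.29 in iCSC, 2.28 and 2.30 in Sphere, and 2.27 and 2.27 in Monolayer. MEGF10, an engulfment receptor that also acts in muscle satellite cells, was at 9.17 and 8.05 in iCSC, 2.04 and 2.08 in Sphere, and 2.07 and 2.10 in Monolayer.

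Other muscle genes gave a partial picture. On a list of contractile and muscle genes, 79 were on the array: 7 were members and 46 were under the limit on all 6 arrays. Another 6 reached the limit on 1 iCSC array and on no Sphere or Monolayer array: TTN, MYLK, NEXN, SMPX and UNC45B on replicate 1, and LDB3 on replicate 2. Titin (TTN), the giant sarcomere protein, was at 6.30 and 3.70 in iCSC, 2.59 and 2.61 in Sphere and 2.64 and 2.67 in Monolayer. MYOD1, MYOG, MYF5 and MYF6, the transcription factors that set the muscle fate, were looked up because of these values. All 4 were under the limit on every array, as were PAX3, PAX7, ACTA1, CKM, TNNT3 and the acetylcholine receptor subunits CHRND and CHRNG. Among them MYOG was at 3.46 and 3.86 in iCSC, 2.18 and 2.18 in Sphere, and 2.18 and 2.20 in Monolayer, and MYOD1 at 3.49 and 2.71 in iCSC, 2.45 and 2.45 in Sphere, and 2.44 and 2.45 in Monolayer. At such levels no order can be read.

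Of the list, 19 genes that are no members were tested, and 7 of them were higher and 3 lower in iCSC than in Sphere, with 9 not called. The 7 are 36.8% of those tested, against the 19.3% of all genes, and the median log2 fold change of the 19 was 0.27, against 0.01 over all genes. Leaving out x_at and s_at probe sets turned the 7 into 3, and testing without a filter on low values into 12. Both settings change which genes are tested, and without the filter more genes of the list are. The 3 and the 12 can therefore not be set against the 19, and no share is read from them. Against Monolayer, 4 were higher, 9 lower and 6 not called, against 29.0% and 26.6% of all genes called higher and lower. TPM2, the beta tropomyosin, was at 11.57 and 11.76 in iCSC, 5.72 and 4.92 in Sphere, and 11.56 and 11.38 in Monolayer, and was higher in iCSC than in Sphere by 6.35 ± 0.26 on the log2 scale (SE; limma, adjusted p = 9.98e-06). Against Monolayer its difference was 0.19 (adjusted p = 0.556), but 4.10 (adjusted p = 3.22e-05) when probe sets of suffix x_at and s_at were left out. TNNT1, slow troponin T, was at 6.70 and 5.95 in iCSC, 4.11 and 4.07 in Sphere, and 11.33 and 11.16 in Monolayer, higher in iCSC than in Sphere by 2.24 ± 0.26 (limma, adjusted p = 0.000916) and lower than in Monolayer by 4.92 on the log2 scale (log2 fold change -4.92, adjusted p = 1.80e-05). The 3 genes lower in iCSC than in Sphere were RGS5, CSRP1 and ACTA2. RGS5 was at 8.81 and 11.78 in iCSC and 15.12 and 15.25 in Sphere (log2 fold change -4.89 ± 0.85 SE, limma, adjusted p = 0.0053). CSRP1 was at 3.21 and 3.26 in iCSC and 7.27 and 7.39 in Sphere (log2 fold change -4.09 ± 0.16 SE, limma, adjusted p = 9.92e-06). Monolayer cells also had muscle transcripts, and MYBPC2 and MYH8 reached the limit there alone. TNNT1 and TNNC1 were highest in Monolayer, but TNNT1 reached it on both iCSC arrays too and TNNC1 on iCSC replicate 1, at 5.01. None of these genes is a member.

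**Figure D4:**
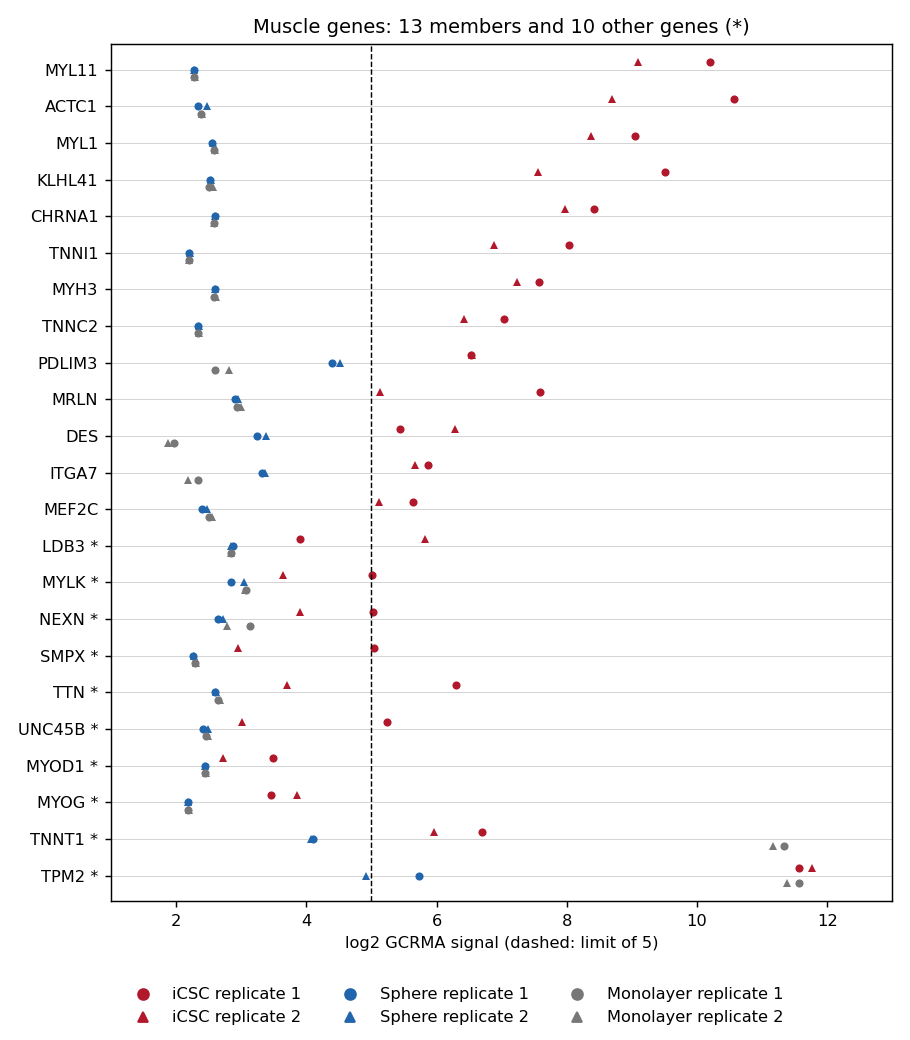
Log2 signal (horizontal axis) of the 13 muscle members and of 10 further muscle genes (asterisk) on each of the 6 arrays, with circles for replicate 1, triangles for replicate 2 and a dashed line at the limit of 5. The members are above the limit on both iCSC arrays, LDB3 to UNC45B on 1 of them, MYOD1 and MYOG on none, and TNNT1 is highest in Monolayer, with 11.33 and 11.16.

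Genes of neurons formed another group of 13: the neuropeptide precursors TAC1, PENK and ADCYAP1, the surface proteins PTPRD, LSAMP and NFASC, the release and transport proteins RIMS4, PPFIA4, SYT17, RAB3B and KIF1A, and the receptors GABRR1 and ADRA2A. TAC1, whose CpG-rich promoter is printed above, was at 9.96 and 10.38 in iCSC, 2.44 and 2.47 in Sphere, and 2.47 and 2.50 in Monolayer, at least 35.9-fold above both other cultures. PENK, the precursor of the enkephalin opioid peptides, was at 9.52 and 10.23 in iCSC, 2.11 and 2.10 in Sphere, and 2.09 and 2.11 in Monolayer, at least 29.4-fold higher in iCSC. ADCYAP1, the precursor of the peptide PACAP, was at 7.71 and 7.87 in iCSC, 2.36 and 2.41 in Sphere, and 2.39 and 2.44 in Monolayer. All 3 were in the lowest band in Sphere and Monolayer. PTPRD, a receptor tyrosine phosphatase of the synapse, was at 9.52 and 8.68 in iCSC, 2.20 and 2.27 in Sphere, and 2.26 and 2.29 in Monolayer. The motor protein KIF1A, which carries synaptic vesicle precursors, was at 5.95 and 6.92 in iCSC, 4.69 and 4.28 in Sphere, and 1.61 and 1.56 in Monolayer. RIMS4, a protein of the presynaptic active zone, was at 7.29 and 7.40 in iCSC, 3.58 and 3.79 in Sphere, and 1.75 and 1.78 in Monolayer. Both were under the limit in both untreated cultures, where levels have no reliable order.

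The neuronal list was mostly lower in iCSC than in Sphere and mostly higher than in Monolayer among its called genes. Of its 191 genes on the array, 5 were members (TAC1, PENK, RIMS4, KIF1A and SYT17), 80 were under the limit on all arrays and 97 others were tested. Of the 97, 12 (12.4%) were higher and 56 lower in iCSC than in Sphere, against 19.3% and 19.2% of all genes, with a median log2 fold change of -1.67, and without Sphere replicate 2 the 12 became 7. Against Monolayer, 46 (47.4%) were higher and 18 lower, against 29.0% and 26.6% of all genes, with a median of 1.05. The neuropeptide precursor VIP, which is no member, was at 3.61 and 6.61 in iCSC, 12.05 and 12.62 in Sphere, and 2.92 and 2.29 in Monolayer, lower in iCSC than in Sphere by 7.22 on the log2 scale (log2 fold change -7.22 ± 0.88 SE; limma, adjusted p = 0.0012).

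Genes of the germ line gave 6 members: PASD1, TEX14, DSCR8, TEX15, RNF17 and BEND4. PASD1, a cancer-testis antigen on chromosome X, was at 8.05 and 7.81 in iCSC, 2.15 and 2.17 in Sphere, and 2.17 and 2.18 in Monolayer. TEX14, which keeps the bridges between dividing germ cells open, was at 7.56 and 7.55 in iCSC, 2.01 and 2.04 in Sphere, and 2.02 and 2.02 in Monolayer. DSCR8, a cancer-testis transcript of chromosome 21, was at 8.08 and 6.89 in iCSC, 2.26 and 2.29 in Sphere, and 2.32 and 2.31 in Monolayer. In all 3 the untreated arrays were at 2.32 or lower. TEX15, which acts in meiosis, was at 6.88 and 6.49 in iCSC, 4.03 and 4.40 in Sphere, and 2.60 and 2.62 in Monolayer. RNF17, a tudor protein of spermatids, was at 6.38 and 6.32 in iCSC, 2.68 and 2.72 in Sphere, and 2.70 and 2.79 in Monolayer. Of the 125 genes of the germline list on the array, 108 were under the limit on all 6 arrays, and the MAGE, SSX and GAGE genes among the antigens of this kind were left out by name. Of 11 tested genes that are no members, 5 (45.5%) were higher and 3 lower in iCSC than in Sphere, against 19.3% and 19.2% of all genes. The 5 became 3 once either Sphere array was left out, without x_at and s_at probe sets, by the median of a gene's probe sets and without the mean-variance trend. GTSF1, a factor of the piRNA pathway, was at 8.16 and 8.86 in iCSC, 10.61 and 10.72 in Sphere, and 11.22 and 11.23 in Monolayer, lower in iCSC than in Sphere (log2 fold change -2.15 ± 0.22 SE; limma, adjusted p = 0.000521).

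Among regulators of development, of 134 listed homeobox genes on the array, 2 were members, HMX2 and LHX2, against 0.784% of all genes, with HOX genes, DLX1, DLX2 and PITX1 left out by name. LHX2, a LIM homeobox factor of forebrain and hair follicle, was at 7.37 and 6.59 in iCSC, 2.16 and 2.15 in Sphere, and 2.18 and 2.19 in Monolayer. HMX2, a factor of the inner ear, was at 8.25 and 7.20 in iCSC, 4.75 and 2.79 in Sphere, and 3.17 and 3.18 in Monolayer, with 1 Sphere array near the limit. TBX1, the T-box gene of the pharyngeal arches, was at 5.46 and 5.52 in iCSC, 2.81 and 2.83 in Sphere, and 2.83 and 2.83 in Monolayer. LHX2 and TBX1 stayed under 3 on all untreated arrays. TRPS1, a GATA-type repressor, was at 8.13 and 7.29 in iCSC, 2.27 and 2.35 in Sphere, and 2.33 and 2.36 in Monolayer. ID4, an inhibitor of basic helix-loop-helix factors, was at 8.26 and 7.55 in iCSC, 2.66 and 2.75 in Sphere, and 2.62 and 2.69 in Monolayer. TRPS1 and ID4, too, were under 3 on all untreated arrays. Among signalling molecules, the guidance cue netrin-1 (NTN1) was at 8.05 and 7.96 in iCSC, 3.57 and 3.56 in Sphere, and 2.47 and 3.40 in Monolayer, and RSPO2, an enhancer of WNT signalling, at 6.76 and 6.37 in iCSC, 2.88 and 2.64 in Sphere, and 2.64 and 2.67 in Monolayer. SMO, the transducer of the hedgehog signal, was at 5.69 and 5.37 in iCSC, 3.41 and 3.32 in Sphere, and 4.73 and 4.63 in Monolayer, a member by a margin of 0.64 log2 units.

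Matrix and adhesion genes on their list were TLL2, SMOC1, FBN2, ITGA7 and HAS2. SMOC1, a matricellular protein of basement membranes, was at 8.23 and 7.26 in iCSC, 2.13 and 2.19 in Sphere, and 2.15 and 2.17 in Monolayer. Fibrillin-2 (FBN2), a microfibril protein of embryonic tissue, was at 7.86 and 6.14 in iCSC, 2.32 and 2.36 in Sphere, and 2.39 and 2.40 in Monolayer, with 1.72 units between its iCSC arrays. The hyaluronan synthase HAS2 was at 5.21 and 6.11 in iCSC, 4.52 and 4.98 in Sphere, and 2.90 and 2.71 in Monolayer, so that 1 Sphere array lay just under the limit. Of the 117 tested matrix genes that are no members, 24 (20.5%) were higher and 50 lower in iCSC than in Sphere, against 19.3% and 19.2% of all genes.

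Zinc finger members were taken as those with a ZNF or ZSCAN symbol, antisense RNAs such as ZNF667-AS1 not counted. This leaves out factors such as OSR2 and TRPS1, and it includes ZNF826P and ZNF542P, annotated as transcribed pseudogenes. Of the 7 zinc finger members, 6 are on chromosome 19 and 1, ZNF10, is on chromosome 12. ZSCAN18 was at 8.47 and 8.41 in iCSC, 1.94 and 1.94 in Sphere, and 1.95 and 1.96 in Monolayer, and its promoter, printed above, was the richest in CG pairs of the 4. ZNF667 and its antisense partner ZNF667-AS1 are the only members that follow each other in the gene order. ZNF667 was at 6.40 and 5.82 in iCSC, 2.85 and 2.86 in Sphere, and 2.89 and 2.86 in Monolayer, and ZNF667-AS1 at 7.46 and 7.19 in iCSC, 2.49 and 2.52 in Sphere, and 2.50 and 2.54 in Monolayer. Each is given as its probe set is annotated, and since the genes lie beside each other on opposite strands, the values of the pair are uncertain. ZNF468 was at 7.26 and 5.26 in iCSC, 2.51 and 2.55 in Sphere, and 2.53 and 2.60 in Monolayer, far apart on its iCSC arrays. Symbols of this kind on the array numbered 526, with 234 on chromosome 19. Of 311 that were tested and are no members, 33 were higher and 44 lower in iCSC than in Sphere, against 19.3% and 19.2% of all genes. On chromosome 19 this was 6 higher and 23 lower of 119.

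Long non-coding RNAs made up 21 of the members. HOTAIR, transcribed from the HOXC cluster, was at 8.63 and 7.29 in iCSC, 2.61 and 2.64 in Sphere, and 2.62 and 2.68 in Monolayer. DLX6-AS1, which lies next to DLX6, was at 8.95 and 8.10 in iCSC, 3.45 and 3.12 in Sphere, and 2.80 and 2.83 in Monolayer. TUSC7 was at 7.31 and 8.03 in iCSC, 2.36 and 2.47 in Sphere, and 2.82 and 2.84 in Monolayer. HOTAIR was higher on iCSC replicate 1 by 1.34 units, whereas TUSC7 was higher on replicate 2. In imprinted regions, the growth factor receptor adaptor GRB10 was at 7.48 and 7.57 in iCSC, 2.51 and 2.51 in Sphere, and 2.54 and 2.53 in Monolayer. MEG9, a non-coding RNA of the DLK1 and MEG3 region on chromosome 14, was at 5.47 and 6.97 in iCSC, 3.69 and 3.70 in Sphere, and 2.82 and 2.89 in Monolayer, and SNORD114-3, of the same region, at 5.48 and 5.70 in iCSC, 3.09 and 3.20 in Sphere, and 2.79 and 2.85 in Monolayer. COPG2IT1, in the MEST region of chromosome 7, was at 6.54 and 5.58 in iCSC, 2.62 and 2.84 in Sphere, and 2.82 and 2.81 in Monolayer. Of 26 tested imprinted genes that are no members, 13 were higher and 6 lower in iCSC than in Sphere, against 19.3% and 19.2% of all genes. Against Monolayer 13 were higher and 1 lower, against 29.0% and 26.6% of all genes. MEST was at 14.75 and 14.67 in iCSC, 11.08 and 10.35 in Sphere, and 14.56 and 14.48 in Monolayer, higher in iCSC than in Sphere by 4.0 ± 0.21 (SE; limma, adjusted p = 3.24e-05). MEG3, looked up because of MEG9, was at 9.97 and 10.98 in iCSC, 8.99 and 9.15 in Sphere, and 3.36 and 3.27 in Monolayer, and its excess over Sphere of 1.41 (limma, adjusted p = 0.0145) was not called once Sphere replicate 1 or Sphere replicate 2 was left out (adjusted p = 0.0826 and 0.0604), nor with x_at and s_at probe sets left out, where it was 0.84 (adjusted p = 0.0727).

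Further members came from the remaining lists. Epithelial genes gave TSPAN8, MUC4 and CLDN11. Of 17 other tested genes of that list, 2 were called, both lower in iCSC than in Sphere. Over all genes, 19.3% were called higher and 19.2% lower. Against Monolayer, 3 of the 17 were higher and 12 lower, against 29.0% and 26.6% of all genes. MUC4, a membrane mucin, was at 7.12 and 5.09 in iCSC, 2.68 and 2.62 in Sphere, and 2.67 and 2.67 in Monolayer. Ion channels gave the potassium channel subunits KCNS3, KCNT2 and KCNG1, and KCNS3 was at 7.06 and 7.26 in iCSC, 2.41 and 2.44 in Sphere, and 2.49 and 2.49 in Monolayer. Immune genes gave HCLS1 and LAT, while 8 of 71 other tested genes of the list (11.3%) were higher and 39 lower in iCSC than in Sphere, against 19.3% and 19.2% of all genes, the 8 becoming 4 without x_at and s_at probe sets. Metabolic enzymes gave UGT8, BHMT2 and APOA2, and UGT8, which makes the galactolipids of myelin, was at 7.16 and 6.79 in iCSC, 2.44 and 2.49 in Sphere, and 2.46 and 2.52 in Monolayer. On the list of retinoic acid and nuclear receptors there was no member among 32 genes on the array. In all, 44 members were on at least 1 of the 15 lists and 111 on none.

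The 2 iCSC arrays differed more for the members than for other genes. Replicate 1 was higher for 106 of 155 members (68.4%), and for 49.0% of the 9535 other genes that reached the limit on both iCSC arrays. The arrays were more than 1 unit apart for 29 members (18.7%), 23 of them higher on replicate 1 and 6 on replicate 2, against 2.09% of 8651 other genes in the same range of levels. The median distance between the arrays was 0.49 for members and 0.19 for the others. Of the muscle members, 11 of 13 were higher on replicate 1, with a median difference of 0.61 and 5 of them over 1 unit. The lean was not particular to muscle genes. Replicate 1 was also higher for 6 of 7 zinc finger members (median difference 0.58) and 5 of 6 germline members (0.15). The same held for 79 of the 116 members in no such group (0.30). Of the neuronal members, 5 were higher on replicate 1 and 8 on replicate 2, with a median difference of -0.11. The 3 members with the largest difference were MRLN, MUC4 and PRAC1, all higher on replicate 1, and MRLN was at 7.58 and 5.14 in iCSC, 2.90 and 2.95 in Sphere, and 2.93 and 3.0 in Monolayer. TRHDE, an enzyme that breaks down a releasing hormone, differed the other way, with 6.41 and 8.01 in iCSC, 3.19 and 3.33 in Sphere, and 2.66 and 2.69 in Monolayer. These differences are within 1 culture label and have no test.

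**Figure D5:**
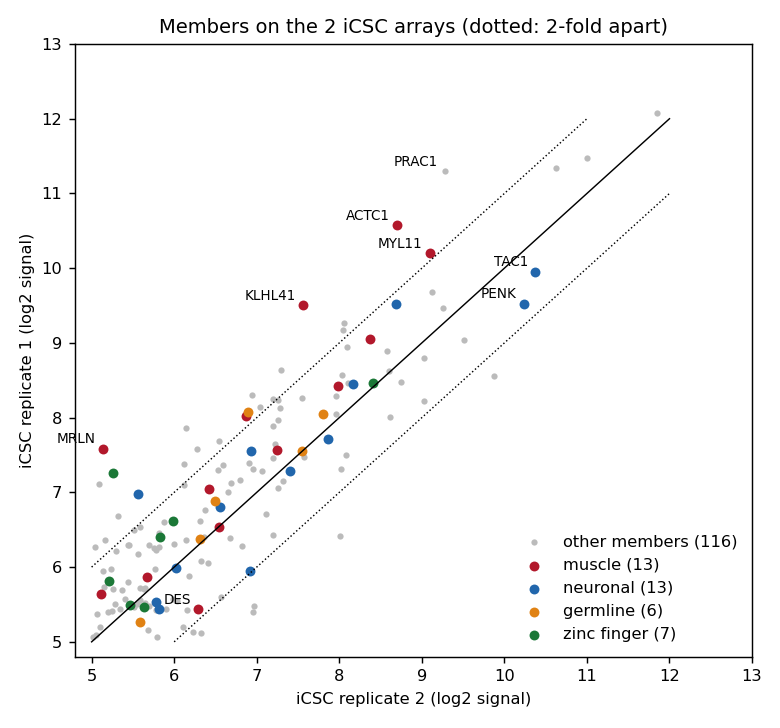
Log2 signal of the 155 members on iCSC replicate 1 (vertical axis) against iCSC replicate 2 (horizontal axis), with muscle, neuronal, germline and zinc finger members in colour, a solid line of equal signal and dotted lines at 1 log2 unit apart. Most points lie above the line of equal signal, muscle genes among them, while TAC1 and PENK lie below it.

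A second probe set was available for 93 of the members, 177 probe sets in all. Of these, 27 (for 21 genes) showed the same pattern, 13 reached the limit on 1 iCSC array alone, and 137 were under the limit on all 6 arrays. None reached the limit on a Sphere or Monolayer array. STOM had a second probe set of the same pattern, at 12.29 and 11.50 in iCSC, 3.78 and 3.20 in Sphere and 3.90 and 3.21 in Monolayer, and another that was under the limit throughout. TLL2, PTPRD and SKAP2 had further probe sets of the pattern as well. For 63 genes, IGF2BP1 and PENK among them, all other probe sets were under the limit on every array, so the pattern there rests on 1 probe set. By the median of a gene's probe sets, IGF2BP1, ZSCAN18 and MEGF10 had mean iCSC levels of 3.39, 4.07 and 4.97, all under the limit. The remaining 62 genes had a single probe set. By suffix, 30 members were measured by s_at probe sets and 5 by x_at probe sets, which can bind transcripts of more than 1 gene.

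Members were spread over the genome. Chromosome 8 held 10 of them (6.45%, against 3.62% of the genes on the array), and chromosome 11 held 1 (0.645%, against 5.78%). Next to the members stood 308 other genes in the RefSeq order, of which 54 were tested. Of the 54, 13 (24.1%) were higher in iCSC than in Sphere and 7 were lower, with 34 not called; over all genes the shares were 19.3% and 19.2%. Without Sphere replicate 2 the 13 became 7. With the nearest tested gene on each side in place of the adjacent one, 80 of 293 (27.3%) were higher and 56 (19.1%) lower. DLX6, next to DLX6-AS1, was at 9.75 and 9.27 in iCSC, 7.31 and 6.73 in Sphere, and 3.15 and 2.67 in Monolayer, higher in iCSC than in Sphere by 2.49 ± 0.29 (SE; limma, adjusted p = 0.000996) and than in Monolayer by 6.60. PROM1, next to FGFBP2 and itself of the members' pattern but left out by name, was at 10.44 and 10.68 in iCSC, 2.59 and 2.61 in Sphere, and 2.58 and 2.61 in Monolayer. Other neighbours were lower in iCSC than in Sphere. LPAR3, next to MCOLN2, was at 2.73 and 2.65 in iCSC, 5.55 and 6.62 in Sphere, and 2.73 and 2.76 in Monolayer, lower in iCSC than in Sphere (log2 fold change -3.39 ± 0.34 SE; limma, adjusted p = 0.000508). RCBTB2, next to LPAR6, was at 4.73 and 4.75 in iCSC, 7.13 and 6.64 in Sphere, and 2.48 and 1.91 in Monolayer, likewise lower in iCSC than in Sphere (log2 fold change -2.14 ± 0.26 SE; limma, adjusted p = 0.00125).

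DNMT1, the maintenance methyltransferase that 5AdC traps, was looked up beside the members. Its transcript was at 12.21 and 12.38 in iCSC, 12.25 and 12.43 in Sphere, and 12.50 and 12.47 in Monolayer, a difference of -0.04 between iCSC and Sphere (limma, adjusted p = 0.772) and of -0.19 between iCSC and Monolayer (adjusted p = 0.142). Its protein was not measured.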

How the data were processed

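RNA of 6 SK-N-AS samples was isolated with RNeasy and biotin-labelled with the MessageAmp Premier kit, per the labels' protocols, and measured on 3'-oriented expression arrays. The deposited value table holds log2 signals that the authors made with GCRMA, and Partek is also named in the submitters' processing notes; their versions and settings are not stated. Of 54675 probe sets, 62 are controls, 41091 carry 1 gene symbol, 1801 several and 11721 none in the platform annotation. Symbols were updated through RefSeq's gene table for GRCh38.p14, matching 41037 probe sets, and that table served only for names, chromosomes and gene order, since the files name no build. Each gene was read from its probe set of highest mean over the 6 arrays. Promoters of chromosome 8 were not used.

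Genes at log2 5 or more on at least 2 arrays, 10459 in number, entered limma 3.58.1 (R 4.3.3): a mean per culture over all 6 arrays, 3 residual degrees of freedom, a mean-variance trend, two-sided tests and Benjamini-Hochberg adjustment over all of them, called at an adjusted p under 0.05. The model was also run on simulated data. These had fewer changed genes than were called here, all of them in iCSC, so that run does not measure the error of these calls. Log2 differences are iCSC minus the other culture. Genes were named by a rule: the 25 members with the highest iCSC mean, up to 6 members and 3 called non-members of each of 15 lists, members at the limit, adjacent members, those with the most different iCSC arrays, and called neighbours; genes outside it were chosen after their values were seen. The members and the lists were chosen with earlier results of these data known. Alternatives were other limits, filters, probe set rules, normalization, no variance trend, a replicate block and leaving out each array. Filters, probe set rules, normalization and leaving out an array can change which genes are tested. A count under these is not a share of the genes tested in the main fit. Plots used matplotlib 3.10.9 (Python 3.11.15).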

Additional observations from a re-analysis of the deposited data

Results flagged for a closer look

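Probe sets that do not carry a single gene symbol were outside the comparisons above, and some of them show the members' pattern, at log2 5 or more on both iCSC arrays and under it on all Sphere and Monolayer arrays. Among 1801 probe sets with several symbols, 23 did so, which is 1.28% of them. The brightest 4 carry symbols of GAGE cancer-testis genes, and 1 of them was at 15.14 and 15.15 in iCSC, 2.32 and 2.36 in Sphere and 2.37 and 2.36 in Monolayer. Among 11721 probe sets with no symbol, 36 did so, or 0.307%. Among 41091 probe sets with 1 symbol, 276 did so, or 0.672%.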

How the results depend on the processing

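The number of members was 155 and stayed within 1.5 times that number under every alternative run: 115 with at least 4-fold between the lower iCSC array and the highest other array, 156, 140 and 154 at limits of log2 4, 6 and 7, 144 by the median of a gene's probe sets, 224 with any probe set, 136 without x_at and s_at probe sets and 152 after renewed quantile normalization. Which genes they were moved more: 111, 84 and 52 of the 155 remained at limits of 4, 6 and 7, and 90 by the median of probe sets. Leaving out 1 array at a time gave 157 to 223 members, 2392 to 3762 genes called between iCSC and Sphere (4022 with all arrays), 3809 to 5550 between iCSC and Monolayer (5812) and 7 to 12 adjacent genes called higher (13). The lowest counts came without Sphere replicate 1 (2392 genes), Sphere replicate 2 (2499 genes, 7 adjacent genes) and Monolayer replicate 1 (3809 genes); the lone array of a culture is then assumed to vary like the others. With the nearest tested gene in place of the adjacent one, 80 were called higher. RGS5, of the muscle list, reversed: its log2 difference between iCSC and Monolayer was -0.63 with all arrays and 0.86 without iCSC replicate 1, and -2.11 without iCSC replicate 2. With a replicate block, 4106 and 5891 genes and 13 adjacent genes were called. The replicate numbers share only a number here: deviations of same-numbered arrays correlated at 0.17 for iCSC and Sphere, -0.05 for iCSC and Monolayer and 0.02 for Sphere and Monolayer. Levels under log2 5 have no reliable order, which limits statements on all members near it, and 2 arrays a culture limit the precision of every difference.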
